A study of Mus musculus with 16 samples.

Results

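Day 4 was compared with day 2 of the passage of mouse embryonic stem cells from the naive towards the primed state, with 2 libraries on each day, 4 of the 16 in the series. The libraries were chosen by day alone, as those labelled day 2 and day 4. Both days used the E14TG2a line, an established line of mouse embryonic stem cells, carrying 1 wild-type Dnmt1 allele and 1 allele with the N1580A substitution. Naive cells had been grown in serum and leukaemia inhibitory factor with the kinase inhibitors CHIR99021 (against GSK3) and PD0325901 (against MEK), and priming was passage in the same medium without either inhibitor. On each day cells were electroporated with 1 mM Ado-6-azide, a cofactor analogue that carries an azide, and genomic DNA was taken 3 h later. No source used here says whether the replicates were separate cultures or how many clones stand behind the knock-in line. Any spread between libraries that enters the p-values may therefore be technical. The 5 libraries labelled wild type, 3 of them plain and 2 called controls, gave the background. The labels do not explain the controls, including whether they received azide. The 2 day 8 libraries and the 3 knock-in libraries from outside the time course, also of heterozygous cells, are set beside the members where stated.

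DNMT1 copies CG methylation onto newly replicated DNA, with UHRF1 guiding it to hemimethylated sites, while DNMT3A and DNMT3B add methylation to unmethylated sites and TET enzymes oxidise it. Naive stem cells kept with both inhibitors have low methylation, which recovers when the inhibitors are withdrawn. CpG islands, the CG-dense stretches around many promoters, stay largely free of methylation, and their flanks, the shores, are more variable. In this assay a DNMT1 engineered to take the azide cofactor marks the CGs on which it acts, and the sequenced fragment starts at the mark. Each table gave positions, the C of a CG, with the number of reads at each. A listed position therefore records labelled DNA within the pulse and says nothing of transcription.

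Every library of day 4 held more listed positions than every library of day 2. The 19 autosomes held 1245488 and 1286026 positions in replicates 1 and 2 of day 2. On day 4 they held 2056936 and 2531636. By geometric means, used for every ratio of totals here, day 4 was 1.80-fold higher. The arithmetic means were 1265757 ± 28665 positions on day 2 and 2294286 ± 335664 on day 4 (SD, n = 2 each). The two-sided exact permutation p of 0.33 is the smallest that 2 libraries against 2 can give, so no total can pass a threshold here. Depth moved with the day, at 9889357 and 8787079 reads on day 2 and 11817739 and 11773587 on day 4. Thinned to 8787079 reads each, the libraries held 1225676 and 1286026 positions on day 2 and 1958107 and 2390465 on day 4, a ratio of 1.72. At 2000000 reads each the ratio was 1.41. Reads per position went the other way, from 7.94 and 6.83 on day 2 to 5.75 and 4.65 on day 4, so the same number of reads was spread over more sites. The plain wild-type libraries held 945 to 5555 positions and the 2 wild-type controls 9027 and 3436. Since a rise in all positions is removed by scaling, everything that follows is about where in the genome the share of positions differed, given in CPM, the number of positions for each 1000000 listed on the autosomes of that library.

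**Figure D1:**
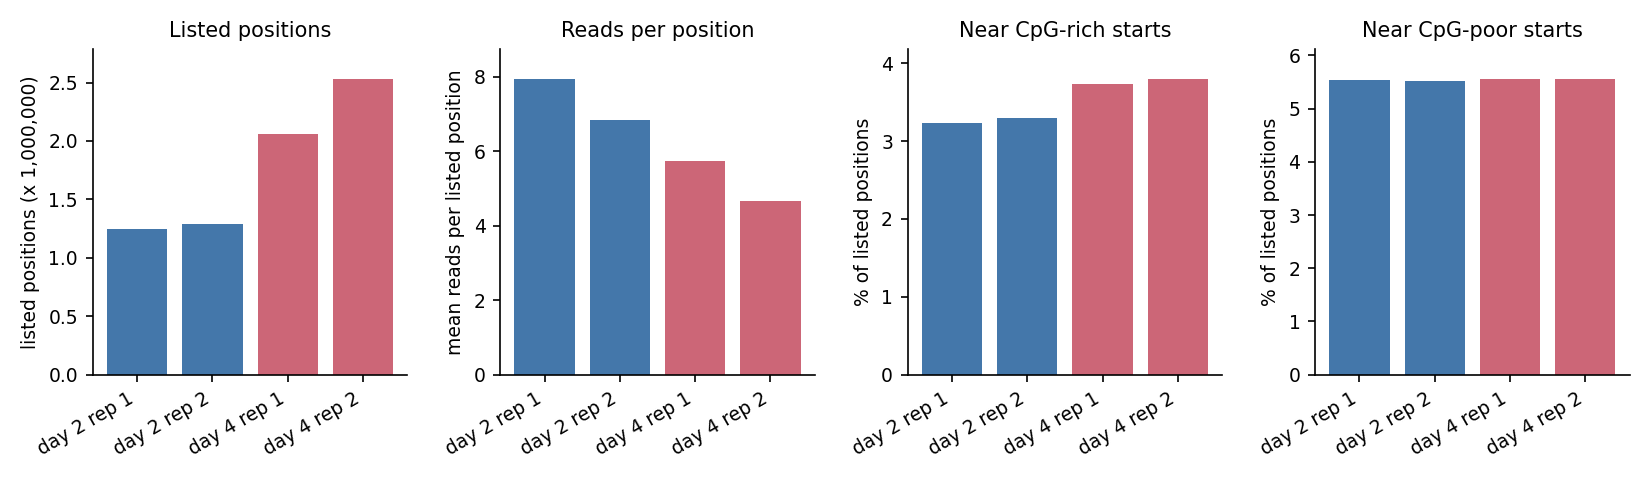
Bars give 1 value per library (blue, day 2, and red, day 4) for listed autosomal positions, mean reads per position, and the percent of positions that lay 500 bases to 5 kb from a CpG-rich or a CpG-poor gene start. Both day 4 libraries lie above both day 2 libraries in the first panel and in that of CpG-rich starts, and below them in reads per position, while the share near CpG-poor starts stays between 5.51% and 5.56%.

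Gene starts were sorted by the sequence around them, because the results below turn on it. RefSeq promoters (GRCm38.p6), each 300 bases with 250 before the start and 50 from it on, were available for 31365 starts of 25748 genes. The motif counted was CG, which reads the same on both strands, and 94.7% of promoters held at least 1. A start was called CpG-rich with at least 16 of them (10516 starts, 33.5%), intermediate with 7 to 15 (5936 starts, 18.9%) and CpG-poor with at most 6 (14913 starts, 47.5%). The next 5 promoters show both ends of this range at genes that passed the tests below, but Sox5 is not typical of the lower genes. Taking the start with most CGs, the 9 lower genes in the promoter table had a median of 18 CGs. The 11 higher genes there had a median of 24, and all tested genes there 14. Jarid2, Trim71, Cdt1 and Mtf2 were higher on day 4 and Sox5 was lower. Jarid2 and Mtf2 encode accessory subunits of PRC2, the complex that methylates histone H3 at repressed CpG islands. Trim71 encodes an RNA-binding ubiquitin ligase of early embryos, Cdt1 a replication licensing factor, and Sox5 an SRY-related transcription factor. Capitals mark each CG, and the sequences run 5′ to 3′ along the gene's own strand.
Jarid2: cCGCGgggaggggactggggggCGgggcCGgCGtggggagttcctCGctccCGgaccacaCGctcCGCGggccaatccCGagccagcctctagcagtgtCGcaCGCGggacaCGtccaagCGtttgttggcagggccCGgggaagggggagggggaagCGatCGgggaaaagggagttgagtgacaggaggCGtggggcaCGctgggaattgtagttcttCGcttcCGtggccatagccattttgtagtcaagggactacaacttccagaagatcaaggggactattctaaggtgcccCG
Mtf2: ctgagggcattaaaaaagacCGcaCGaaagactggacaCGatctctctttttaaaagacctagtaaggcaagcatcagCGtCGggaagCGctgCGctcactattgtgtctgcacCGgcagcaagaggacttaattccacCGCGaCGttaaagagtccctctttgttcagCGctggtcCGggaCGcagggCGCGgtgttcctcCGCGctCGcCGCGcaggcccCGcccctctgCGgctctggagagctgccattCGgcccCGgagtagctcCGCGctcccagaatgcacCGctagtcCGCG
Trim71: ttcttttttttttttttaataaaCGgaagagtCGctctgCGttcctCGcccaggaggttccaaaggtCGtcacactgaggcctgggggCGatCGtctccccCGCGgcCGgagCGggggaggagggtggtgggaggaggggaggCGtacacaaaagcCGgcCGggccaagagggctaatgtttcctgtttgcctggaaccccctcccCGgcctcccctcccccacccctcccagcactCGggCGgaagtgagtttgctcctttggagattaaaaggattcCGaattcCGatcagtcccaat
Cdt1: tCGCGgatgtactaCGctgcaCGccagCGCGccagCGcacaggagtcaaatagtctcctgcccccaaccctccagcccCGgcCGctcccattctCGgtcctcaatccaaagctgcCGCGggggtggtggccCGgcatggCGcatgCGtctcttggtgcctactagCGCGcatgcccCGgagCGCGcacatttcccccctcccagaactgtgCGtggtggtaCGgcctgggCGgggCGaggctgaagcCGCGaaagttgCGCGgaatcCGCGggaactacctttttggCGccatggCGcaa
Sox5: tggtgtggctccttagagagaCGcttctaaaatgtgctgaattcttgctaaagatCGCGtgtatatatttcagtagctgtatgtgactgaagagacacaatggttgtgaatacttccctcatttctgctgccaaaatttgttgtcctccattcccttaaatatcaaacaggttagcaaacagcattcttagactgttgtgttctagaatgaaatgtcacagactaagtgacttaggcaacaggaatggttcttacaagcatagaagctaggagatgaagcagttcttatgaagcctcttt
The Jarid2 window is chr13:44730524-44730823 on the plus strand and holds 24 CGs. Mtf2 (chr5:108065424-108065723, plus strand) holds 30, Trim71 (chr9:114564320-114564619, minus strand) holds 19 and Cdt1 (chr8:122567765-122568064, plus strand) holds 32. The Sox5 window (chr6:143947057-143947356, minus strand) holds 3. It is the 1 start of Sox5 in the table and lies far inside the gene body, not at the 5′ end of the longest model, whose promoter was not used here. None of these CGs was listed in any of the 4 libraries, except for 1 in the Sox5 promoter in day 2 replicate 1.

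The bare promoters of the CpG-rich genes are the rule for their class. Of the 255291 CGs in CpG-rich promoters, 0.121% and 0.108% were listed on day 2 and 0.207% and 0.277% on day 4. Of the 39029 CGs in CpG-poor promoters, 6.60% and 6.78% were listed on day 2 and 10.8% and 13.4% on day 4. Intermediate promoters lay between, at 2.88% and 2.97% on day 2 and 4.78% and 6.34% on day 4. In the wild-type libraries 0.0031% to 0.0619% of the CGs in CpG-rich promoters and 0.0154% to 0.0436% of those in CpG-poor promoters were listed. Both upper values came from control replicate 1. All 3 classes therefore held more listed CGs on day 4, and CpG-rich promoters held the lowest percentage on both days.

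The flanks of CpG-rich starts took a larger share of all positions on day 4 than on day 2. On the 18 autosomes with promoters in the table, 3.24% and 3.30% of positions lay 500 bases to 5 kb from a CpG-rich start on day 2, as the nearest start. On day 4 the shares were 3.74% and 3.80%. The mean went from 3.27% ± 0.0441 to 3.77% ± 0.0463 (SD, n = 2 each), a 1.15-fold difference, with no overlap and far larger than either SD. Within 500 bases the share was 0.101% and 0.0958% on day 2 and 0.120% and 0.131% on day 4, 1.28-fold higher, with few positions in all. From 5 to 20 kb the ratio fell to 1.05, and beyond 20 kb it was 0.998 with overlapping libraries. The day 8 libraries gave 3.77% and 3.71% at 500 bases to 5 kb, and the 3 knock-in libraries 3.74% to 3.86%. The wild-type libraries placed 5.11% to 6.35% of their positions there, which is 50 to 557 positions against 38876 and 40921 on day 2 and 74083 and 92790 on day 4. Within 500 bases they placed 2.59% to 4.35%, or 25 to 382 positions, with both upper values from control replicate 1. Day 2 had 1209 and 1187 positions there and day 4 had 2381 and 3199. Background could thus be a larger part of the counts within 500 bases, and its part in their ratios was not tested.

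The difference was uneven even inside those 5 kb. It was largest 500 to 1000 bases downstream of CpG-rich starts, where 959 and 955 CPM (here scaled to the 18 autosomes) on day 2 became 1305 and 1417 on day 4, a ratio of 1.42. In the next 500 bases downstream the ratio was 1.38. On the upstream side it was 1.28 at 500 to 1000 bases, and over the first 500 bases upstream and downstream it was 1.29 and 1.27. Each of these 5 bins had both day 4 libraries above both day 2 libraries. At 5 to 10 kb the ratio was down to 1.05 upstream and 1.07 downstream. Around CpG-poor starts the ratios of all bins out to 10 kb lay between 0.992 and 1.04. Counted in reads, the peak bin had a ratio of 1.41.

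**Figure D2:**
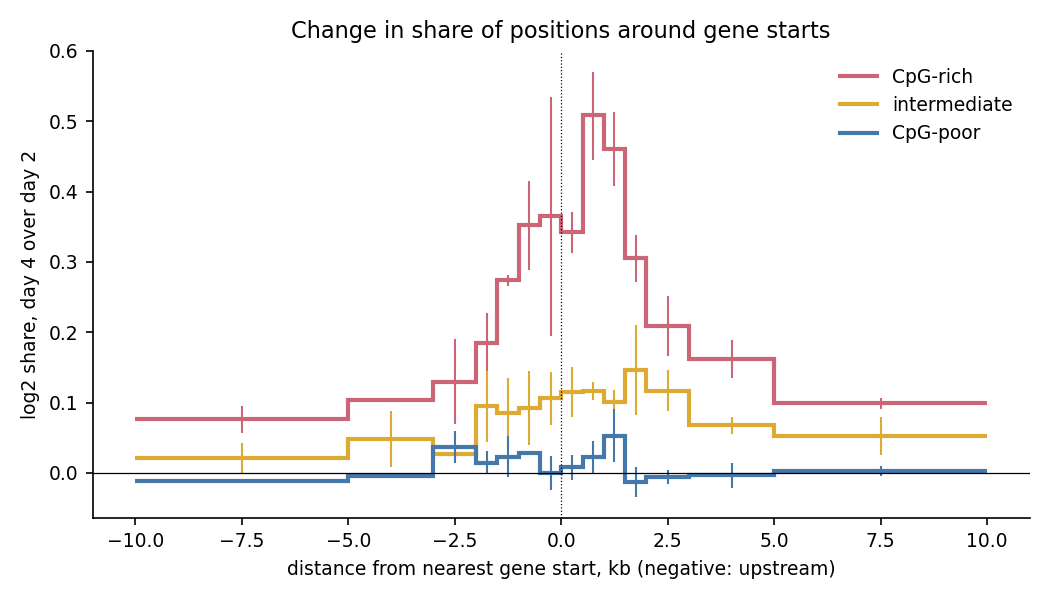
The log2 ratio of the share of positions on day 4 to that on day 2 is plotted by distance in kb from the nearest gene start, for the 3 classes of start. Vertical lines run from the lowest day 4 over the highest day 2 library to the highest day 4 over the lowest day 2 library. The CpG-rich curve peaks at 0.51 between 500 and 1000 bases downstream, while the CpG-poor curve stays between -0.01 and 0.05.

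Other classes of start bound this result. At 500 bases to 5 kb the share near intermediate starts was 2.45% and 2.47% on day 2 and 2.58% and 2.61% on day 4, a ratio of 1.06. Near CpG-poor starts it was 5.54% and 5.51% on day 2 and 5.56% on both libraries of day 4, a ratio of 1.01. More than 20 kb from a CpG-poor start the share was 32.0% and 31.8% on day 2 and 31.1% and 30.9% on day 4, a ratio of 0.971. Reads per position fell alike in every class and distance, for example from 8.07 and 6.95 to 5.82 and 4.71 at 500 bases to 5 kb from CpG-rich starts and from 7.96 and 6.85 to 5.77 and 4.70 at the same distance from CpG-poor starts. The share of available CGs that were listed moved with the day, as given for the promoters, and its part in the shift of shares was not tested. After thinning to equal reads the ratio near CpG-rich starts was again 1.15.

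At the scale of 1 Mb, the segments with many CpG-rich starts took a larger share of positions on day 4. Of 2406 windows tested on listed positions with edgeR's quasi-likelihood test, 140 were higher on day 4 (5.82%) and 63 lower (2.62%) at a Benjamini-Hochberg adjusted p under 0.05. Enough of the protein-coding genes were in the promoter table to count CpG-rich starts in 1673 of them. Of the 48 windows with 20 or more such starts, 33 were higher and 0 lower. With 10 to 19 starts, 48 of 212 were higher and 1 lower. With 5 to 9, 10 of 378 were higher and 8 lower. Of the 587 windows with 1 to 4 starts, 1 was higher and 18 lower, and of the 448 without any, 3 were higher and 11 lower. The number called depends on the positions per window as well as on the change. In day 2 replicate 1 the 48 windows with 20 or more starts held 41193 positions. The 491 without any, tested or not, held 110249. Without day 2 replicate 1 the total called was 83, and without day 4 replicate 2 it was 135, while DESeq2 called 62, of which 55 were higher.

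The shares of whole classes of windows gave the same order. Windows with 20 or more CpG-rich starts held 4.96% and 5.02% of the classed positions on day 2 and 5.51% and 5.63% on day 4, a ratio of 1.117. Those with 10 to 19 had a ratio of 1.05, and the 3 classes below had 0.991, 0.970 and 0.979. The shift was not confined to the regions around the starts in the promoter table, which held 79.6% of protein-coding genes. Positions near starts missing from it stay in the next count, and their part was not tested. Counting only positions over 5 kb from any start in the table, the windows with 20 or more held 3.44% and 3.52% on day 2. On day 4 they held 3.76% and 3.82%, a ratio of 1.09. Both day 4 libraries lay above both day 2 libraries in that class and in the class with 10 to 19 starts.

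**Figure D3:**
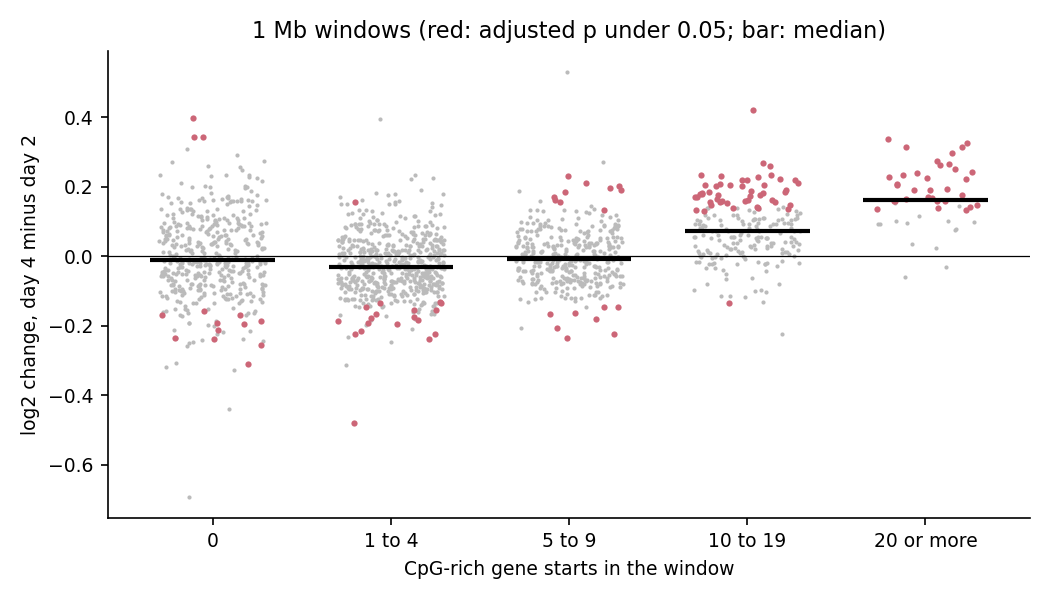
Each point is a 1 Mb autosomal window, placed by its number of CpG-rich gene starts and by its log2 change from day 2 to day 4. Red points passed the threshold and black bars are class medians, which run from -0.03 in windows with 1 to 4 starts to 0.16 in windows with 20 or more.

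The window with the largest gain among the 140 was chr4:133000001-134000000, with 17 CpG-rich starts, which holds the chromatin remodeller gene Arid1a. It held 528 and 597 CPM on day 2 and 735 and 762 on day 4 (log2 change 0.42 ± 0.049 SE, edgeR adjusted p 3.4e-05). Adjacent windows on chromosome 10, from 80000001 to 81000000 and from 81000001 to 82000000, had 46 and 29 such starts. Their log2 changes were 0.33 ± 0.041 and 0.34 ± 0.043. The window at chr17:35000001-36000000, in the major histocompatibility complex, held 614 and 612 CPM on day 2 and 731 and 781 on day 4. All 4 had both day 4 libraries above both day 2 libraries.

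The lower windows had a median of 2 CpG-rich starts where these could be counted, against 3 over all tested windows and 17 in the higher ones. The largest loss was at chr12:18000001-19000000, with 3 such starts, which went from 117 and 121 CPM to 86.1 and 84.1, a log2 change of -0.48 ± 0.11 SE. The window at chr12:107000001-108000000, with 0 such starts and the T cell factor gene Bcl11b, held 849 and 812 CPM on day 2 and 711 and 690 on day 4. Its log2 change was -0.24 ± 0.040 SE (edgeR adjusted p 0.00083). At chr9:117000001-118000000, which holds part of the RNA-binding protein gene Rbms3, the change was -0.25 ± 0.043. At chr16:89000001-90000000, a cluster of keratin-associated protein genes, 605 and 640 CPM became 529 and 523. The exceptions, named after their values were seen, were few. The 3 windows with 0 CpG-rich starts that rose were chr6:46000001-47000000, within the very long neuronal gene Cntnap2, chr16:67000001-68000000, with the adhesion gene Cadm2, and chr6:75000001-76000000. Their log2 changes were 0.34 ± 0.090, 0.34 ± 0.10 and 0.40 ± 0.098. The 1 that rose with 1 to 4 starts was chr10:4000001-5000000, which holds the oestrogen receptor gene Esr1, and the 1 that fell with 10 to 19 was chr8:11000001-12000000, which holds the collagen genes Col4a1 and Col4a2.

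In windows of 100 kb the same test called fewer. Of 23611 tested, 48 were higher (0.203%) and 17 lower (0.072%). CpG-rich starts could be counted in 29 of the higher and 13 of the lower windows, with a median of 2 in the first and 0 in the second. The median over all tested windows was also 0. No such start lay in 10 of the 13 lower windows and in 14328 of the 18893 tested where starts could be counted, so the lower windows were close to the background. The smallest p belonged to chr9:114500001-114600000, which holds Ccr4, Trim71 and Cnot10, with 34.5 and 32.7 CPM on day 2 and 68.1 and 69.5 on day 4. The log2 change was 1.04 ± 0.16 SE (edgeR adjusted p 7.8e-06), and the window also passed without each of the 4 libraries in turn. The next was chr5:135900001-136000000 (Ywhag, Ssc4d, Zp3, Dtx2), at 49.0 and 47.4 on day 2 and 81.2 and 88.5 on day 4. The window at chr15:102200001-102300000, which includes the retinoic acid receptor gene Rarg and the separase gene Espl1, had 34.5 and 42.8 on day 2 and 67.1 and 71.1 on day 4. At chr3:95600001-95700000, with the survival gene Mcl1, 28.9 and 37.3 became 57.8 and 61.2. The fifth, chr10:81200001-81300000, rose by 0.56 on the log2 scale. Of all 65, only 3 passed without day 2 replicate 1, 14 without day 2 replicate 2, 33 without day 4 replicate 1 and 2 without day 4 replicate 2.

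Of the 5 lower windows with the smallest p, chr2:178600001-178700000 held 88.3 and 77.8 CPM on day 2 and 49.6 and 51.7 on day 4 (log2 change -0.70 ± 0.13 SE). The window at chr6:129000001-129100000, with the natural killer receptor genes Clec2f, Klrb1f and Clec2e, held 37.7 and 46.7 on day 2 and 22.8 and 24.5 on day 4. At chr13:52300001-52400000, where RefSeq has no protein-coding or lncRNA gene, 81.9 and 78.5 became 55.4 and 50.2. The remaining pair, chr9:3000001-3100000 and chr11:3100001-3200000 (Sfi1), had log2 changes of -0.61 and -0.44 in positions. Their changes in reads were -0.03 and -0.05, so for these 2 the read counts did not fall with the positions.

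Regions reaching 5 kb to either side of a single start were also tested, and 2899 of 7667 around CpG-rich starts, 2207 of 3949 around intermediate and 4050 of 10273 around CpG-poor starts passed the filter. Of these 9156 regions, 1 was higher (0.0109%) and 0 lower (0%), with 643 at an unadjusted p under 0.05. The one called was at Cdt1, where 1 and 1 positions on day 2 stood against 21 and 26 on day 4. That is 0.803 and 0.778 CPM on day 2 and 10.2 and 10.3 on day 4, a ratio of 12.96 with an exact 95% interval of 3.40 to 110, which covers counting error only. The fitted log2 change was 3.58 ± 0.63 SE (edgeR adjusted p 0.0013). The day 8 libraries had 30 and 27 positions, or 9.96 and 10.6 CPM, and the wild-type libraries had 0. The region passed the filter through day 4 alone, and it was not called by DESeq2, on reads or after leaving out any 1 library. Around the other starts printed above the counts on days 2 and 4 were 4, 1, 4 and 3 for Jarid2, 0, 0, 2 and 7 for Mtf2, 1, 0, 2 and 4 for Trim71, and 5, 10, 7 and 15 for Sox5. None of these 4 passed.

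Over whole gene bodies, 34 genes passed the test on listed positions. Of 33069 protein-coding and lncRNA genes, 18469 passed the filter on low counts, and 17 of these were higher on day 4 (0.092%) and 17 lower (0.092%) by edgeR. Scaled by library totals alone, 34 were higher and 11 lower. Both day 4 libraries lay above both day 2 libraries in 19.4% of the genes tested and below them in 20.2%. Without day 2 replicate 1 the test called 8 genes, without day 2 replicate 2 it called 9, without day 4 replicate 1 it called 22 and without day 4 replicate 2 it called 6. It called 0 after thinning to equal numbers of positions, where 1268 had an unadjusted p under 0.05, and DESeq2 called 0, with 315. All of the 34 that could be tested had the same sign in each of these settings. Both day 4 libraries lay on 1 side of both day 2 libraries in all 34, so a change of sign was hardly possible.

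Jarid2 was the gene with the clearest gain. Its body (chr13:44730774-44921643) held 51 and 67 positions on day 2 and 190 and 206 on day 4. In CPM that is 40.9 and 52.1 on day 2 and 92.4 and 81.4 on day 4, a log2 change of 0.85 ± 0.14 SE (edgeR adjusted p 3.6e-05). The day 8 libraries had 87.3 and 77.9 CPM and the 3 knock-in libraries 88.3 to 104, while the 5 wild-type libraries had 3 positions in all. The call was lost without day 2 replicate 1. Trim71 (chr9:114511268-114564369) held 16.9 and 11.7 CPM on day 2 and 30.1 and 35.6 on day 4, a log2 change of 1.18 ± 0.24 (edgeR adjusted p 0.0029). It was lost without day 2 replicate 2 and without day 4 replicate 2.

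Along Jarid2 the gain was seen inside the gene, while the first 20 kb held too few positions to tell whether they gained. In the first 20 kb, where the CpG-rich promoter lies, bins of 10 kb held 0 to 2 positions on day 2 and 1 to 5 on day 4. From 20 to 80 kb the day 2 bins held at most 3 positions in every case but 1, with 6, and the day 4 bins held 5 to 14. The bin centred 125 kb from the start had 0 and 0 on day 2 and 9 and 9 on day 4. Near the 3′ end, the bin centred at 175 kb had 8 and 9 on day 2 and 27 and 21 on day 4. In the 50 kb upstream of the start the bins held 2 to 10 on day 2 and 3 to 16 on day 4, so that in CPM the days overlapped in part.

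**Figure D4:**
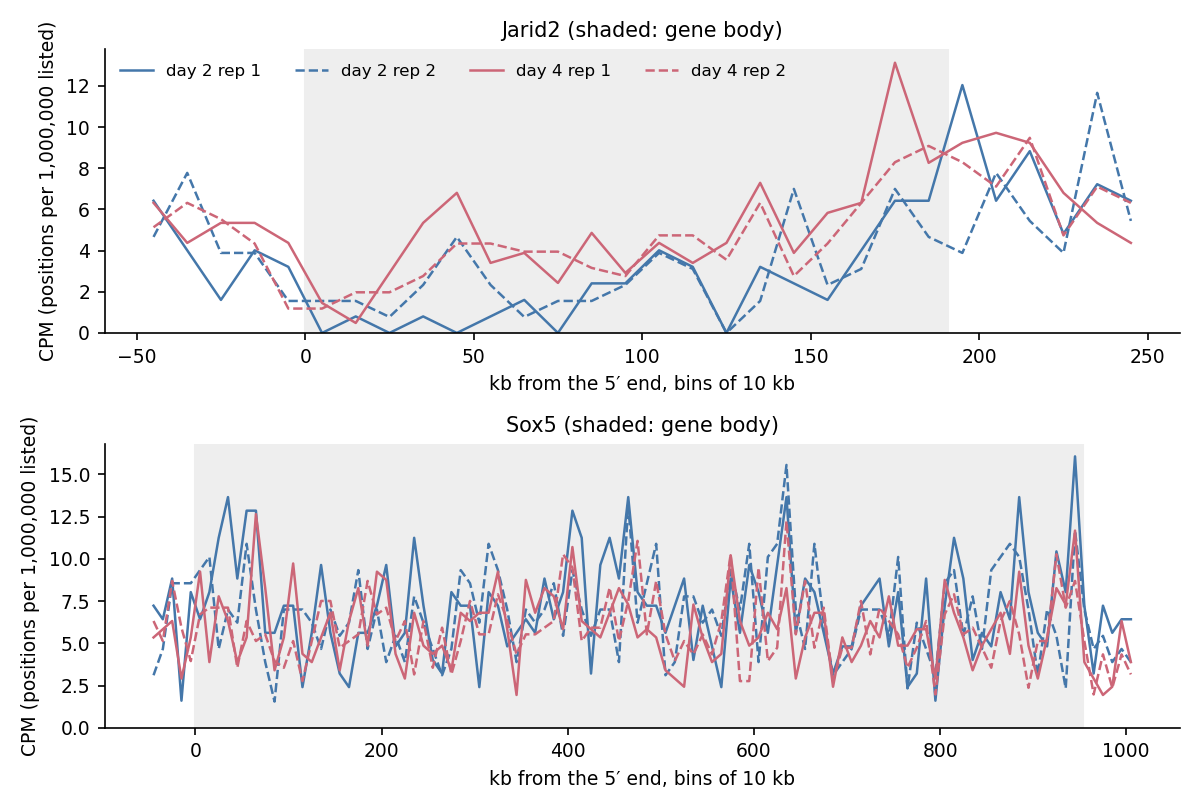
Lines give the CPM in bins of 10 kb along Jarid2 and Sox5, from 50 kb upstream of the 5′ end to 50 kb past the 3′ end, with the gene body shaded. In Jarid2 the day 4 lines (red) lie above the day 2 lines (blue) over most of the body and mix with them outside it, while in Sox5 the day 4 lines lie lower over many bins spread along the gene.

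The other higher genes named by rule, those with the 8 largest changes among genes at or above the median count, had diverse roles. Apobec3 encodes a cytidine deaminase that restricts retroviruses, and it held 7.23 and 13.2 CPM on day 2 and 23.8 and 24.1 on day 4 (log2 change 1.18 ± 0.28 SE, edgeR adjusted p 0.032). Srrm3, a splicing factor of neural cells, went from 33.7 and 35.8 to 55.4 and 59.3, and Bicral, a subunit of a BAF chromatin remodeller, from 47.4 and 69.2 to 85.6 and 91.2. Rbpms, an RNA-binding protein, rose by 0.41 ± 0.091 on the log2 scale. Clybl, a mitochondrial lyase, rose by 0.38 ± 0.083, and Rere, an atrophin-family corepressor, by 0.34 ± 0.072. In each of these 6 genes both day 4 libraries lay above both day 2 libraries, which the rule required. Of the higher genes of at least 500 kb, Gm38667, Gm37013 and Gm38666 rose by 0.30, 0.29 and 0.29. All 3 are overlapping models over the protocadherin cluster (chr18:36952648-37841873) and count as 1 locus, which held 266 and 262 CPM on day 2 and 329 and 335 on day 4 over the longest model.

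Of the higher genes the rule left out, 6 lay under the median count, and they are named here after their values were seen. Cdt1 held 1 and 1 positions on day 2 and 16 and 18 on day 4, a CPM ratio of 9.38 with an exact 95% interval of 2.40 to 80.6. Spata33 held 2 and 3 on day 2 and 20 and 26 on day 4, a ratio of 5.08 with an interval of 2.02 to 16.4. Mtf2 held 4 and 5 on day 2 and 21 and 36 on day 4 (log2 change 1.75 ± 0.44 SE, edgeR adjusted p 0.0497). Gm46213, Pmel, which encodes a pigment cell protein, and Slc11a1, a macrophage metal transporter, held 4 to 12 positions on day 2 and 22 to 51 on day 4. Such genes can pass the filter through day 4 alone and then have to be higher, so their number supports nothing, and each interval covers counting error only. Cdt1 and Spata33 lay on chromosome 8 within 1 Mb of each other.

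**Figure D5:**
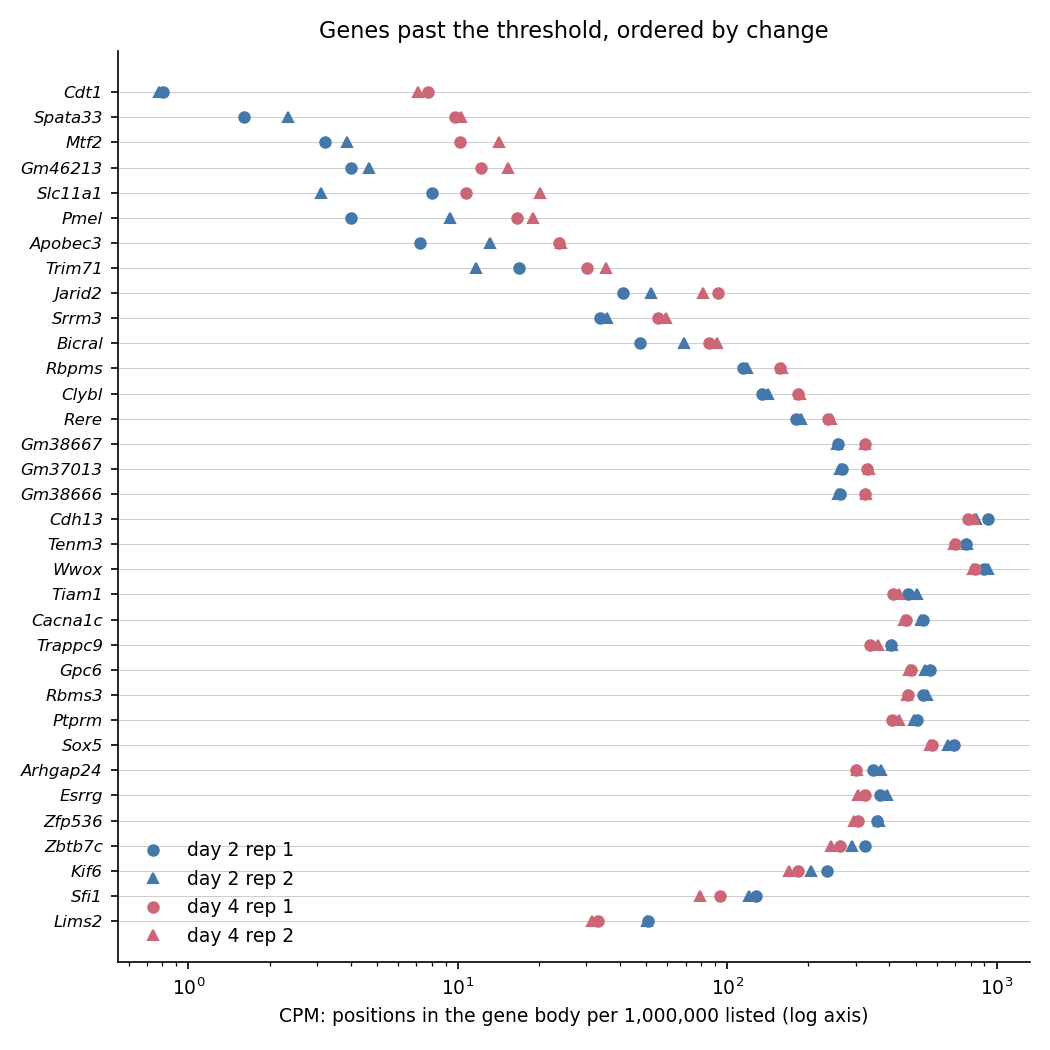
Each row is a gene that passed the test, with the CPM of its body on a log axis for day 2 (blue) and day 4 (red), replicate 1 as circles and replicate 2 as triangles. Both day 4 values lie right of both day 2 values in the upper 17 genes and left of them in the lower 17, by wide steps at low counts and small steps in the long genes.

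Lower genes were mostly long. Sox5 (chr6:143828425-144782287) held 692 and 658 CPM on day 2 and 574 and 567 on day 4, a log2 change of -0.28 ± 0.041 SE (edgeR adjusted p 7.4e-06). It was the 1 gene of the 34 that passed without each of the 4 libraries in turn. The day 8 libraries held 549 and 599 CPM and the knock-in libraries 583 to 617. Ptprm, a receptor tyrosine phosphatase, went from 505 and 492 to 409 and 432, and Esrrg, an orphan nuclear receptor, from 368 and 392 to 324 and 307. Rbms3 went from 531 and 550 to 467 and 464, the glypican gene Gpc6 from 564 and 542 to 481 and 474, and Wwox, an oxidoreductase gene, from 894 and 931 to 833 and 818. Both day 4 libraries lay below both day 2 libraries in all 6, again as the rule required. Ptprm was lost without day 2 replicate 1, and Rbms3, Esrrg and Wwox without day 2 replicate 2 or day 4 replicate 2.

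The remaining lower genes were fewer in positions. Lims2, a focal adhesion gene, went from 50.6 and 50.5 CPM to 33.1 and 31.6 (log2 change -0.69 ± 0.17 SE, edgeR adjusted p 0.0497), and it was called in none of the 12 other settings run. Sfi1, a centrosome gene, went from 128 and 121 to 94.3 and 79.4, a change of -0.57 ± 0.10, with -0.13 in reads. Kif6, a kinesin, changed by -0.36 ± 0.074, Zbtb7c, a zinc finger gene, by -0.33 ± 0.062, and Arhgap24 by -0.29 ± 0.057. Zfp536, a zinc finger repressor of neural cells, went from 359 and 365 to 305 and 295. The calcium channel gene Cacna1c and the Rac exchange factor gene Tiam1 changed by -0.25 ± 0.046 and -0.24 ± 0.048.

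The called genes differed in length. The median length was 67.9 kb for the higher genes, 610 kb for the lower genes and 28.0 kb for all tested. Of the 220 tested genes of at least 500 kb, 3 were called higher and 10 lower, and 45.0% had both day 4 libraries below both day 2 libraries against 11.4% above. Among all genes tested those shares were 20.2% and 19.4%. For genes of 100 to 500 kb they were 33.5% and 14.4%. Genes under 100 kb with a CpG-rich start had 25.5% above and 13.4% below, and those with a CpG-poor start 14.3% above and 22.7% below. At 100 kb or more the direction was down in both classes, with 15.0% above and 33.9% below for a CpG-rich start and 11.4% and 35.8% for a CpG-poor start. Of the 6875 tested genes with a CpG-rich start 7 were called higher and 5 lower, and of the 4676 with a CpG-poor start 2 and 1. Genes that entered the test through day 4 alone are part of these counts. Long genes have more positions and so a smaller error, and whether length itself plays a part was not tested.

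By reads no gene body was called. Of 28427 genes tested with edgeR, 0 passed (0%), with 1839 at an unadjusted p under 0.05, and DESeq2 called 168. The estimated spread between replicates was wider, with a common biological coefficient of variation of 0.365 for reads against 0.00988 for positions, the lowest value the fit allows. Windows of both sizes and start regions also had 0.00988 by positions. The common spread allowed for in the tests on positions was thus little beyond counting error. Without day 2 replicate 1 or day 2 replicate 2 the test on reads called 626 and 939 genes. Jarid2 had a change in reads of 0.96 and Sox5 of -0.33 on the log2 scale, both of the same sign as in positions. Of 23775 windows of 100 kb, 2 were called on reads (0.00841%), and without day 2 replicate 1 or day 2 replicate 2 there were 360 and 637.

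None of the genes that write, guide or erase methylation passed. Dnmt1 itself, the maintenance enzyme, held 66.6 and 62.2 CPM on day 2 and 73.4 and 71.9 on day 4 (log2 change 0.13 ± 0.13 SE, edgeR adjusted p 0.86). The de novo enzymes Dnmt3a and Dnmt3b changed by 0.19 ± 0.12 and -0.09 ± 0.20. Their cofactor gene Dnmt3l held 10 and 12 positions on day 2 and 25 and 45 on day 4 (0.77 ± 0.32, edgeR adjusted p 0.45). Tet1, which oxidises methylcytosine, went from 49.0 and 40.4 CPM to 64.2 and 58.1 (0.41 ± 0.15, edgeR adjusted p 0.35), and its relative Tet2 changed by -0.16 ± 0.20. Uhrf1, the guide of DNMT1, changed by 0.18 ± 0.24. Of the 28 genes of DNA methylation and demethylation listed, 21 were tested and 0 called, with a median log2 change of 0.16 against -0.005 for all genes tested. Both day 4 libraries lay above both day 2 libraries in 38.1% of the 21 and below them in 9.5%. Among all genes tested these shares were 19.4% and 20.2%, and among genes under 100 kb with a CpG-rich start 25.5% and 13.4%. The list was not matched for length or CGs, and the difference was not tested.

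Pluripotency genes and the pathways held by the inhibitors gave no call either. Of 25 naive genes 14 were tested, with a median of 0.11, and of 26 formative and primed genes 13 were tested, with a median of 0.10. Both day 4 libraries lay above both day 2 libraries in 57.1% of the tested naive genes and below them in 14.3%. For the formative and primed genes these shares were 30.8% and 0%, against 19.4% and 20.2% of all genes tested. Among genes under 100 kb with a CpG-rich start they were 25.5% and 13.4%, and no list was matched for length or CGs. Genes that entered through day 4 alone can be among the listed genes, and the shares of the lists were not tested. Esrrb, a naive factor, held 132 and 118 CPM on day 2 and 130 and 139 on day 4. Fgf5, a primed marker, held 15.3 and 6.998 on day 2 and 12.2 and 11.5 on day 4, and Prdm14, a naive repressor of de novo methylation, 10.4 and 10.9 on day 2 and 13.1 and 11.8 on day 4. Nanog held 2 and 4 positions on day 2 and 9 and 8 on day 4 and Otx2 2 and 2 on day 2 and 6 and 7 on day 4, too few for the filter. The nearest to the threshold in either list, named after its values were seen, was Etv5, an ETS factor downstream of FGF signalling, at 30.5 and 28.8 CPM on day 2 and 44.2 and 53.3 on day 4 (0.69 ± 0.18, edgeR adjusted p 0.071). The FGF and MAPK list had 27 of 35 genes tested and a median of 0.19, and the GSK3 and Wnt list 28 of 37 and a median of 0.09. In the FGF and MAPK list 37.0% of the tested genes lay above and 14.8% below, and in the GSK3 and Wnt list 35.7% and 17.9%.

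Among PRC2 genes, a list added after the values of Jarid2 and Mtf2 were seen, 9 of 11 were tested and those 2 were called higher, against 0.092% of all genes tested. As these 2 led to the list, and Mtf2 is among the genes that can pass the filter through day 4 alone, the count supports nothing. The catalytic subunits Ezh2 and Ezh1 changed by -0.30 ± 0.25 and 0.22 ± 0.22, and the core subunits Suz12 and Eed by 0.39 ± 0.30 and -0.19 ± 0.34. The core gene Rbbp4 and the accessory genes Aebp2 and Phf19 changed by -0.10, 0.14 and 0.14. Hox genes, classical PRC2 targets, had 5 of 41 tested, 0 called and a median of 0.44. Genes that entered through day 4 alone can be among these 5. Summed over the 41 they held 139.7 and 148.5 CPM on day 2 and 201.8 and 216.1 on day 4, 1.45-fold higher. In this sum a position in overlapping genes counts for each, and the ratio was not tested. Hoxb3 was the nearest to the threshold, at 19.3 and 20.99 on day 2 and 30.1 and 33.2 on day 4 (0.62 ± 0.22, edgeR adjusted p 0.30).

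The housekeeping list had too few positions per gene to test. Its 27 genes, which encode ribosomal and other housekeeping proteins, had 1 tested, Eef2, which encodes a translation elongation factor, at 2 and 7 positions on day 2 and 17 and 27 on day 4 (1.37 ± 0.47, edgeR adjusted p 0.27). Their summed level was 26.5 and 16.3 CPM on day 2 and 43.3 and 52.1 on day 4, 2.23-fold higher, the highest ratio of summed levels among the lists, from few positions and with no test. Of 43 long adhesion and synaptic genes, all were tested and 2 were called lower, with a median of -0.01, against 0.092% of all genes tested and 10 of the 220 of at least 500 kb. These were Tenm3, a teneurin (768 and 775 CPM to 700 and 697), and Cdh13, a cadherin (929 and 837 to 781 and 826). Of 50 imprinted genes 38 were tested and 1 was called, Trappc9, a trafficking gene, which went from 405 and 410 to 340 and 363. The 24 germline genes had 21 tested, 0 called and a median of 0.02. Of 394 zinc finger protein genes 251 were tested and 1, Zfp536, was called, with a median of 0.05.

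Genes of other lineages, listed because cells could differentiate once the inhibitors are gone, also gave 0 calls. The median was -0.04 over 15 tested endoderm genes of 20, 0.09 over 12 of 20 mesoderm and endothelial genes, 0.03 over 11 of 20 ectoderm and neural genes and -0.07 over 8 of 14 trophoblast genes. Both day 4 libraries lay above both day 2 libraries in 6.7%, 8.3%, 9.1% and 25% of these, in that order. They lay below in 20%, 25%, 36.4% and 12.5%, which was not tested. Summed over the 20 ectoderm and neural genes, 1136 and 1124 CPM on day 2 became 1084 and 1039 on day 4. The 15 genes of the 2-cell-like state found in RefSeq summed to 11.2 and 14.0 CPM on day 2 and 15.1 and 15.8 on day 4, and none was tested. Olfactory receptors had 11 of 1104 tested and a median of 0.04. Vomeronasal receptors had 22 of 352 tested, with a median of -0.23 and both day 4 libraries below both day 2 libraries in 9 (40.9%) and above in 1, against 20.2% and 19.4% of all genes tested. Summed over all 352, however, they held 422 and 416 CPM on day 2 and 436 and 455 on day 4, so the median of the tested genes and the sum differ in direction. A label on DNA does not tell which cell types were present, so these lists describe the loci and not the makeup of the cultures.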

How the data were processed

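Tethered-oligonucleotide libraries were sequenced on an Ion Proton, per the labels' protocols. Reads were handled with cutadapt 4.4, aligned by BWA 0.7.17-r1188 on build mm10 and passed through SAMtools 1.12, as far as the submitters' processing notes name tools. How strand and duplicates were treated is not given in the sources used here. Per the file headers, the authors deposited for each library a position and its coverage, a whole-number count of reads of at least 1, without normalization. Reads at 1 position can be PCR copies, so distinct positions were the main measure and reads the second. In each of the 4 libraries, all positions inside RefSeq promoter windows (4526 to 9560) lay on the C of a CG.

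Positions were counted per RefSeq gene body, a position in overlapping genes counting for each and without regard to strand, per 100 kb and 1 Mb window, and by distance to the nearest of the RefSeq starts, on autosomes. The starts table held none on chromosome 18 and 79.6% of protein-coding genes, so shares by distance used 18 autosomes, and windows were classed only where at least 0.8 of their protein-coding genes were in it. Differential tests used edgeR 4.0.16 (R 4.3.3) on the 4 libraries, with filterByExpr, TMM (factors 0.984 to 1.016 for genes; library totals alone for start regions), glmQLFTest and Benjamini-Hochberg adjustment at 0.05; SE is the log2 change over the square root of F. DESeq2 1.42.0 was an alternative tool, with scaling, filter, thinning, block and left-out libraries as others. Python 3.11.15 with numpy 2.4.6 and pandas 2.3.3 did the counting. Scripts were tested on simulated data.

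The comparison, members and lists were chosen with earlier results of these data known. Named genes were, among called genes at or above the median count with no overlap, the 8 with the largest change each way, the 6 of at least 500 kb with the smallest p, up to 2 per list, and 12 fixed genes; for windows, the 5 with the smallest p. Added after seeing the data were the classes of start by CG number, start regions, 1 Mb windows, the 0.8 minimum and the PRC2 list.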

Additional observations from a re-analysis of the deposited data

How the results depend on the processing

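Counts of calls depended on the tool, on scaling and on single libraries. Wherever tested, the 34 genes, 65 windows of 100 kb and 203 windows of 1 Mb kept their sign in every alternative. The calls were chosen on these same libraries, which left little room for a sign to change, so the kept signs are no independent support. DESeq2 called 0 genes, 0 windows of 100 kb (362 at an unadjusted p under 0.05), 62 windows of 1 Mb and 0 start regions (81 unadjusted) by positions, and 168 genes and 8 windows of 100 kb by reads. Thinning to equal numbers of positions gave 0 genes and 3 windows of 100 kb, positions with at least 2 reads gave 22 such windows, and windows of 1 Mb in place of 100 kb gave 203. A fit of 6 libraries, with day 8, gave 5 windows of 100 kb by reads, and start regions by reads gave 0 calls (1032 unadjusted). Leaving out 1 library gave 6 to 22 genes and 2 to 33 windows of 100 kb by positions, 83 to 200 windows of 1 Mb, 0 start regions, and by reads 0 to 939 genes and 1 to 637 windows; it left a day with 1 library, assumed to vary like the other day's. Whether replicates of the same number were paired is unknown. The correlation of same-numbered deviations was 0.007 for genes, 0.010 for windows of 100 kb and 0.065 for windows of 1 Mb. Single deviations can be mostly counting error, so these low values cannot exclude pairing. At 500 bases to 5 kb from CpG-rich starts, replicate 2 had the larger share on day 2 (3.24% and 3.30%) and day 4 (3.74% and 3.80%). Within 500 bases it had the larger share on day 4 only. With the replicate block 28 genes, 61 windows of 100 kb, 229 windows of 1 Mb and 1 start region were called by positions, and 22 genes and 43 windows of 100 kb by reads. The ratio of the share near CpG-rich starts stayed between 1.14 and 1.17. The ratio of listed positions was 1.75 over positions with at least 2 reads and 1.63 to 2.00 without 1 library, and at equal reads it went from 1.72 to 1.41 when thinned to 2000000 reads. With 2 libraries a day and few positions in short genes, small changes in short genes were not detectable at this depth.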

Other observations

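Most positions were listed in 1 library only. Of the positions in day 2 replicate 1, 10.2% were also in replicate 2, and of those in day 4 replicate 1, 18.9% were also in replicate 2. Positions in both day 2 libraries (126778) were found again on day 4 more often than those in 1 of them (2277958): 19.3% against 15.3% in day 4 replicate 1 and 23.3% against 18.7% in replicate 2. Of all positions listed on day 2 in either library, 31.0% were listed on day 4, which is 17.7% of the day 4 positions.

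Shares of whole chromosomes differed by small steps. Chromosome 11 held 6.18% and 6.21% of positions on day 2 and 6.35% and 6.38% on day 4, and chromosome 13 held 4.80% and 4.76% on day 2 and 4.69% and 4.68% on day 4. As ratios, these were the largest changes up and down among the 19 autosomes. The days overlapped on chromosome 8 alone.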
